A study of Mus musculus with 24 samples.

Results

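The genes Col6a1, Col6a2 and Col6a5 encode chains of collagen VI, and they were followed with every probe that the supplementary list of mesothelium-enriched probes names for them. These were 2 probes for Col6a1, 1 for Col6a2 and 1 for Col6a5, so 3 of the 311 named genes and 4 of the 46120 probes on the array. RNA of 8 tissues from male C57BL/6 mice aged 7 weeks was hybridised to Illumina Mouse Sentrix-6 arrays, 3 arrays to a tissue and 24 in total. Mesothelium, the thin cell layer that lines the body cavities, was dissected from 2 places: the peritoneum, and the pleura and pericardium, which were pooled into a single source. The other 6 tissues were subcutaneous adipose tissue, bladder, heart, liver, lung and skeletal muscle. No treatment is recorded, and mesothelial tissue was gathered from many mice.

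Collagen VI is a network-forming collagen of the extracellular matrix. Chains encoded by Col6a1 and Col6a2 pair with a further chain, in most tissues that of Col6a3 and in some that of Col6a4, Col6a5 or Col6a6, and the assembled units are secreted and join end to end into beaded microfilaments around cells and next to basement membranes. Fibroblasts and other mesenchymal cells are the main known producers, and in people variants of the Col6a1, Col6a2 and Col6a3 counterparts cause muscle disease. None of the named probes stood for Col6a3, Col6a4 or Col6a6, so the chains that could complete the trimer were not analysed here apart from Col6a5.

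The supplementary list holds probes that were higher in mesothelium than in every other tissue, and it gives the collagen VI probes as peritoneal only. The comparison of peritoneal mesothelium with the 6 tissues therefore chose these probes and is given below as values with no test. The comparison of the mesothelium sources shares the peritoneal arrays with that choice, so peritoneal means may be high by selection. Pleural and pericardial mesothelium was compared with the 6 tissues for the same list, and these probes did not pass all of those comparisons. Means of this source may therefore be low by selection, which also favours a difference between the sources. This source is set here against the same tissue arrays, which had to read below peritoneal mesothelium, so its differences from them may also be shifted by selection. Comparisons of the 6 tissues with each other did not choose the probes but use those same arrays.

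The RefSeq promoter windows of the 3 genes are shown because the Col6a1 and Col6a2 probes had similar orders of tissues, while the Col6a5 probe was detected in mesothelium alone. In the RefSeq annotation of the mouse assembly GRCm38.p6 all 3 genes lie on the minus strand. Col6a1 and Col6a2 are neighbours on chromosome 10 with 2 annotated genes between them, Gm51774 and Gm35608, neither of them protein coding. Col6a5 lies on chromosome 9 between Col6a6 and Col6a4. Each window holds 250 bases before and 50 after an annotated start, written 5′ to 3′, and Col6a2 has 2 such starts. Capitals mark matches on either strand to a TATA box, searched as TATAAA. They also mark a CCAAT box, searched as that word, an Sp1 box, searched as GGGCGG, and an AP-1 site, searched as TGACTCA.
Col6a1 (chr10:76725995-76726294): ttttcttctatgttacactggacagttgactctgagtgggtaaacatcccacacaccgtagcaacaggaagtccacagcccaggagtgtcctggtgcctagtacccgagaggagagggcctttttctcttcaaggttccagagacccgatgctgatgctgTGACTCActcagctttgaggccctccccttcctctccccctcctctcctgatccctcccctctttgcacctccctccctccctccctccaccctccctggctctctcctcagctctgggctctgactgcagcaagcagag
Col6a2, upstream start (chr10:76623581-76623880): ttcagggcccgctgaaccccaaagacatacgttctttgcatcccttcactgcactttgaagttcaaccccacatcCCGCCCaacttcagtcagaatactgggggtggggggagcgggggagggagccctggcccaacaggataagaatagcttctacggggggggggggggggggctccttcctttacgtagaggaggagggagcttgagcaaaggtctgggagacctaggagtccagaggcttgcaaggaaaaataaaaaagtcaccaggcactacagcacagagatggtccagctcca
Col6a2, downstream start (chr10:76623355-76623654): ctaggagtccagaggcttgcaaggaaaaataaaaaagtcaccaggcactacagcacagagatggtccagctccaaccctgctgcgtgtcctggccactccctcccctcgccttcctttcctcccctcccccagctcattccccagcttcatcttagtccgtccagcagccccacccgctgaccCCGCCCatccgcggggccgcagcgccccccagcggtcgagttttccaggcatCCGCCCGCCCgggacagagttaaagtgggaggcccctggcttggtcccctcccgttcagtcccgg
Col6a5 (chr9:105960594-105960893): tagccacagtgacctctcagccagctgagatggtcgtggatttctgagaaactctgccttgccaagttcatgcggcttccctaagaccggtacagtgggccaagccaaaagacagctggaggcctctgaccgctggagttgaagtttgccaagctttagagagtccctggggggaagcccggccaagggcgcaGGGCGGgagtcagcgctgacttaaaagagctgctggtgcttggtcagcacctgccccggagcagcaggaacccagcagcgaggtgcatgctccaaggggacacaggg

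The AP-1 letters occur 1 time in the Col6a1 window, 90 bases before the start, and 5.2% of all 32851 promoter windows of the same length hold them. The Sp1 letters occur 1 time in the upstream Col6a2 window, 3 times in the downstream one, with 2 of the 3 matches overlapping by some bases, and 1 time in the Col6a5 window, and 35.7% of all windows hold them. No window holds the TATA or CCAAT letters, which occur in 13.6% and 37.4% of all windows. The longest unbroken stretch of C and T has 29 bases in the Col6a1 window and 22 in the downstream Col6a2 window. It has 11 in the upstream Col6a2 window and 7 in the Col6a5 window. Such stretches were not counted over all windows, so whether these lengths are unusual is not known. The stretches were noticed in the letters and then counted, and a match in a window is a description of its letters and not of a factor's binding.

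Values below are log2 signals after background correction and quantile normalization over the 24 arrays. A probe was called detected on an array where 1 minus its deposited detection score was under 0.01, and 8862 to 13441 probes were detected on an array. The signal of different probes depends on their sequence, so levels are compared between tissues and never between probes. Col6a1 was detected by both probes on all 24 arrays. Col6a2 was detected on 22 of 24 arrays, with the exceptions in liver, and Col6a5 on 3 of 24. Mean log2 signals of the 6 probes for the mesothelium markers Wt1, Msln, Upk3b and Lrrn4 were 11.24 to 11.66 over the peritoneal arrays, 9.92 to 10.42 over the pleural and pericardial arrays, and 4.97 to 8.18 over the arrays of the 6 other tissues. These are averages over probes that differ among themselves. The Upk3b probe scl00100647.2_230-S had a mean of 12.07 in bladder, 10.42 in lung and 10.30 in heart, but 5.32 in liver. Msln had a mean of 9.13 in lung and 5.29 in skeletal muscle. These markers carry a name because they were listed on these arrays as higher in mesothelium, so their levels are no independent check of the labels.

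Col6a1 was read highest in peritoneal mesothelium by both of its probes. The first probe (scl012833.1_126-S) gave log2 signals of 13.58, 13.51 and 13.99 on the peritoneal arrays 1, 2 and 3, a mean of 13.69 ± 0.26 (SD, n = 3). The nearest array of another tissue was lung array 2 at 12.66, so the peritoneal arrays stood clear of all 21 others. Mean log2 signals were 12.31 ± 0.31 in lung, 12.25 ± 0.33 in adipose, 11.95 ± 0.05 in bladder and 11.70 ± 0.10 in skeletal muscle (SD, n = 3 each). Pleural and pericardial mesothelium stood below these 4 tissues, with arrays at 11.47, 11.33 and 11.44. Heart followed at 10.60, 10.73 and 10.28 and liver at 7.90, 7.33 and 7.79, and neither overlapped any other tissue. The tissue means of this probe spanned 6.02 log2 units, or 65-fold, with liver close to the limit of detection.

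The second Col6a1 probe (scl37796.6_295-S) gave 12.70, 13.27 and 13.60 on the peritoneal arrays, a mean of 13.19 ± 0.46 (SD, n = 3). Array 1 was the lowest of the 3 and still lay above every array of another tissue, of which lung array 2 was again the highest at 12.31. Adipose (11.93 ± 0.28), lung (11.83 ± 0.42), bladder (11.80 ± 0.11) and skeletal muscle (11.27 ± 0.19) followed in mean log2 signal (SD, n = 3 each). The pleural and pericardial arrays read 10.58, 11.20 and 11.36. Array 1 of that source was also the lowest, as in peritoneal mesothelium. Heart read 10.13, 9.99 and 10.05 and liver 7.62, 7.32 and 7.19, again at the bottom of the order.

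Col6a2, whose product pairs with that of Col6a1, had log2 signals of 10.93, 10.47 and 11.19 on the peritoneal arrays, a mean of 10.86 ± 0.37 (SD, n = 3). These arrays too lay above all others, of which adipose array 3 was the highest at 9.41. The means of the next 5 tissues were close together: 9.09 ± 0.41 in adipose, 8.83 ± 0.06 in skeletal muscle, 8.78 ± 0.37 in lung, 8.50 ± 0.13 in bladder and 8.42 ± 0.42 in pleural and pericardial mesothelium (SD, n = 3 each). The pleural and pericardial arrays read 8.91, 8.13 and 8.23 and overlapped those of the tissues on either side in the order. Heart read 8.29, 8.29 and 8.00. Liver read 7.51, 6.98 and 6.57, detected only on array 1, and was the lowest tissue for this chain as well.

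Col6a5, which encodes an alternative partner chain, was read near the limit of detection (probe GI_38090072-S). The peritoneal arrays gave 6.09, 7.18 and 6.53, with a mean of 6.60 ± 0.55 (SD, n = 3), and only arrays 2 and 3 were detected. The pleural and pericardial arrays gave 5.89, 6.54 and 6.06, with a mean of 6.16 ± 0.34 (SD, n = 3), and only array 2 was detected. On the 18 arrays of the other tissues the probe was never detected, and its log2 signals ran from 4.92 in liver to 5.52 in bladder. The mesothelium arrays therefore lay above all 18 others while the mesothelium sources overlapped each other. The deposited, background-subtracted signals of this probe ran from -21.7 to 129.7 over the 24 arrays, against 143.8 to 11050.2 for the first Col6a1 probe.

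**Figure D1:**
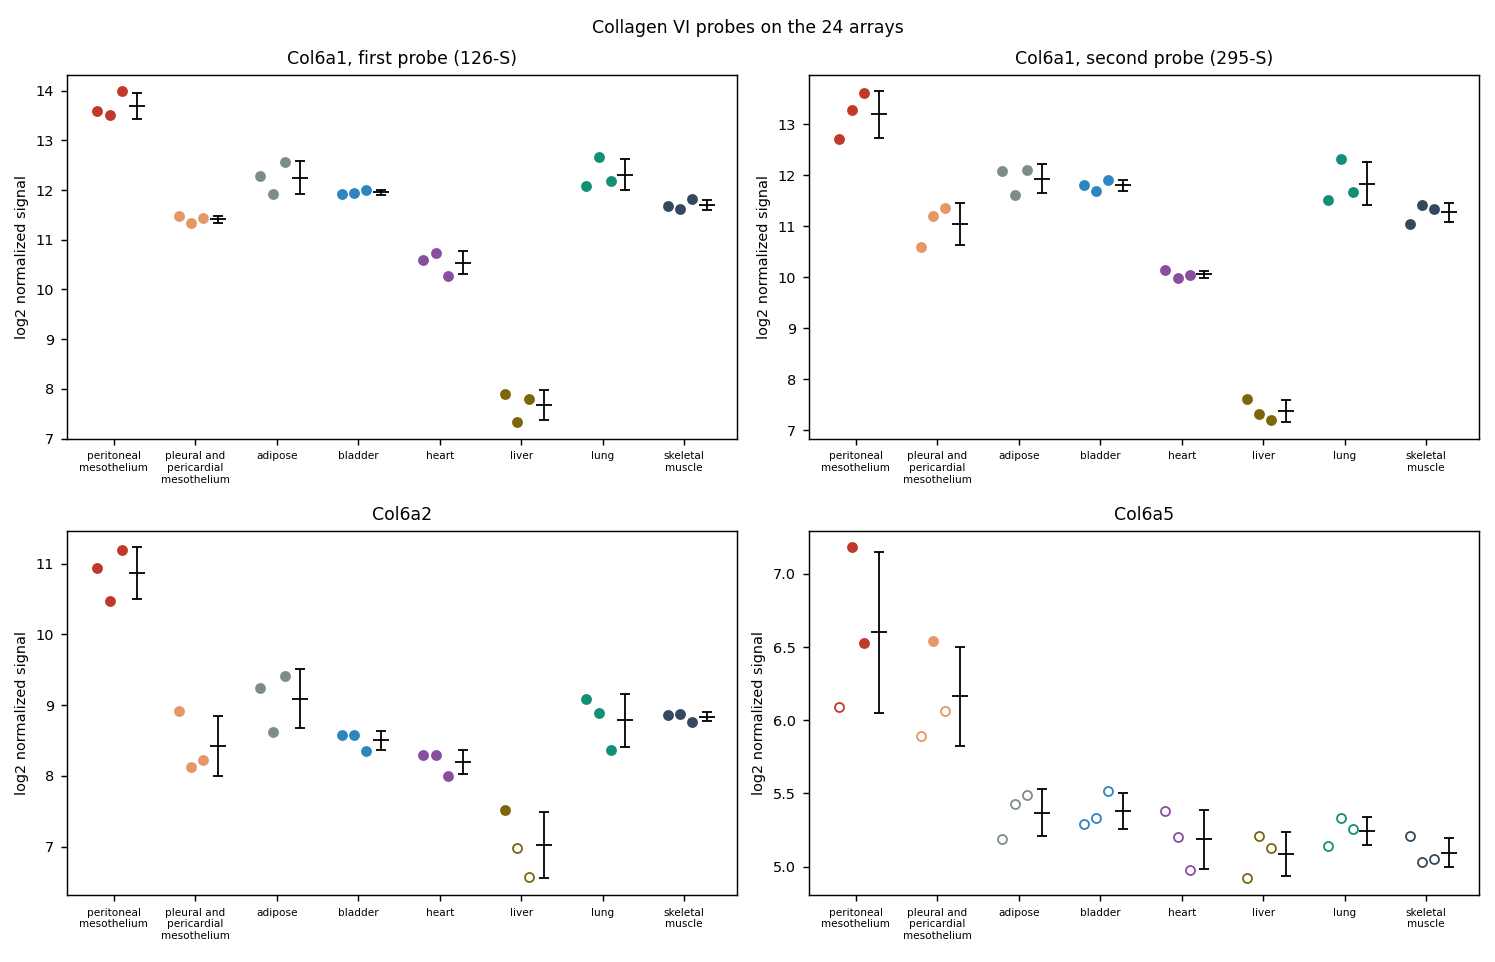
Log2 normalized signal (y axis) of the 4 collagen VI probes on the 3 arrays of each tissue (x axis). Filled points were detected and open points were not, and bars beside the points give the mean and SD. The Col6a1 and Col6a2 probes stand highest in peritoneal mesothelium and lowest in liver, and Col6a5 is detected on 3 of 24 arrays, all of them mesothelium.

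The comparison that chose the probes gave the following differences. Peritoneal mesothelium exceeded the tissue with the next highest mean, lung, by 1.38 log2 units (2.61-fold) for the first Col6a1 probe. The second Col6a1 probe exceeded its closest tissue, adipose, by 1.26 (2.39-fold), and Col6a2 exceeded adipose by 1.77 (3.42-fold). The difference from liver reached 65-fold and 56.3-fold for the Col6a1 probes. Their liver means, 7.67 and 7.38, lay close above the mean of the lowest signals called detected there, 7.08. The size of these folds is therefore uncertain. No fold from liver is given for Col6a2, which was detected on 1 of 3 liver arrays and whose liver mean of 7.02 lay below the mean of the lowest signals called detected there, 7.08. For Col6a5 the closest of the 6 tissues was bladder, 1.22 log2 units lower in measured mean. The probe was not detected in any of them, and no fold is given because the size of this difference depended on the background step. The background was inferred without 10 irregular rows, whose detection scores lie off the steps of all other scores, and with these rows kept the difference was 0.13 log2 units. It was 0.81 with a normexp offset of 50 in place of 16, 0.83 with a plain shift of each array in place of normexp, 1.93 with the authors' normalized values and 0.93 without peritoneal array 2, so that array decided whether it reached 1 log2 unit. All 4 probes were at least 2-fold above all 6 tissues in measured mean with a B-statistic above 0, as were 0.692% of all 46120 probes, and nothing is read from this count because conditions of this kind put the probes on the list.

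Which mesothelium carried more collagen VI was asked by comparing the sources with each other. Col6a1 and Col6a2 were higher in peritoneal mesothelium, by 2.14 to 2.44 log2 units in the 3 probes, and Col6a5 did not pass the adjusted threshold. The first Col6a1 probe was higher by 2.28 log2 units (SE 0.19, 95% interval 1.89 to 2.67, 4.85-fold, limma adjusted p = 7.75e-08). The second Col6a1 probe was higher by 2.14 (SE 0.24, 4.42-fold, limma adjusted p = 3.8e-06). Col6a2 was higher by 2.44 (SE 0.26, 5.43-fold, limma adjusted p = 2.45e-06). In these 3 probes no peritoneal array overlapped a pleural and pericardial array.

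Col6a5 read 0.44 log2 units higher in peritoneal mesothelium, with an SE of 0.20 and a 95% interval of 0.01 to 0.86, and did not pass the test (limma adjusted p = 0.335). Its arrays overlapped between the sources. Leaving out peritoneal array 1, on which the probe was not detected, raised the difference to 0.69 and the adjusted p became 0.0427, so that array decided the call. The interval does not show that Col6a5 was equal in the sources, and whether its difference was smaller than those of the other chains was not tested on its own.

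Of the 4 probes, 3 were called higher in peritoneal mesothelium, against 3.41% of all 46120 probes and 9.09% of the 15537 probes that some tissue detected on its 3 arrays. The groups of arrays did not overlap, with peritoneal above, for 9.38% of all probes. The median difference of the 4 probes was 2.21 log2 units, and that of all probes was 0.01. The 4 probes were listed from these same arrays as peritoneal only, which favoured this direction. Their comparison with all probes is therefore no independent evidence. Array by array, with arrays of the same replicate number set against each other, the difference of the first Col6a1 probe was 2.11, 2.18 and 2.55, that of the second 2.12, 2.07 and 2.24, and that of Col6a2 2.02, 2.34 and 2.96. All 9 of these differences were above 2 log2 units, and those of Col6a5 were 0.20, 0.64 and 0.47. In bulk tissue, fewer cells that make a transcript and less transcript per cell cannot be told apart.

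**Figure D2:**
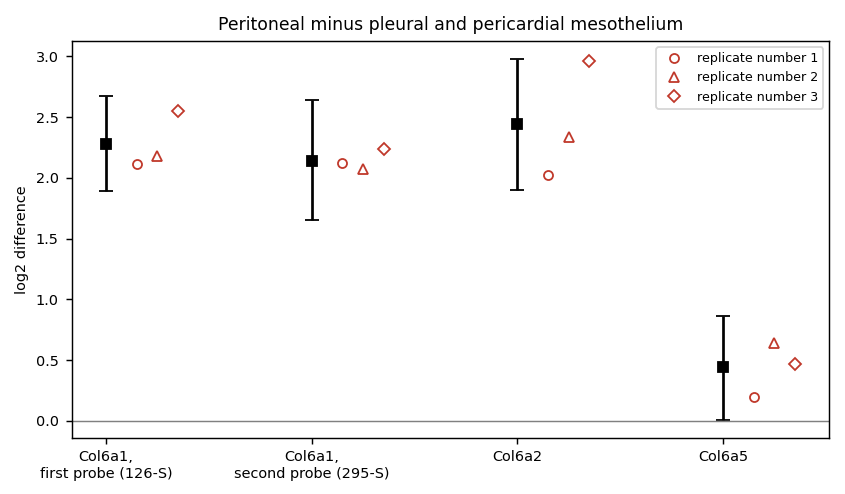
Log2 difference between peritoneal and pleural and pericardial mesothelium (y axis) for the 4 probes (x axis). Squares and bars give limma's estimate and 95% interval, and open symbols the difference between arrays of the same replicate number. The Col6a1 and Col6a2 differences lie between 2.02 and 2.96, and those of Col6a5 between 0.20 and 0.64.

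Markers of other cells moved with this comparison. The 4 named probes of connective tissue markers (Dcn, Cd34, Islr and Fbn1) had a mean log2 signal of 10.91 to 11.23 over the peritoneal arrays, 9.71 to 9.86 over the pleural and pericardial arrays, and 7.27 to 7.30 over the liver arrays. Of these, 3 of 4 were called higher in peritoneal mesothelium, against 3.41% of all probes. Islr was higher by 2.19 log2 units (limma adjusted p = 1.05e-06). Cd34 was not called (0.82, limma adjusted p = 0.0622, or 0.032 in the fit blocked on replicate numbers). Fbn1 was called but was detected on 1 array only. Without Fbn1 the count was 2, with the arrays shifted or each pair of tissues fitted separately, and it was 4 in the blocked fit. The study lists all 4 genes as enriched in peritoneal mesothelium only, from these same arrays, so this direction was favoured by selection. Pdgfra carried no name in the table. The mesothelium markers moved the same way, with all 6 of their probes, which stand for 4 genes, reading higher in peritoneal mesothelium. Of the 6 probes 2 were called, against 3.41% of all probes. That count ran from 1, with the authors' normalized values, to 5. It was 5 with the arrays shifted, the irregular rows kept, dim probes left out or each pair of tissues fitted separately. The 300 probes whose identifiers begin with IGH, IGK or IGL, the prefixes of immunoglobulin genes, had a mean log2 signal of 7.19 to 7.70 over the pleural and pericardial arrays and 5.42 to 5.53 over the peritoneal arrays. The part of these cells in the collagen VI differences was not tested.

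Pleural and pericardial mesothelium was then compared with each of the 6 tissues. For Col6a1 and Col6a2 it was the sixth of 8 tissues in all 3 probes, above heart and liver. The first Col6a1 probe was higher there than in liver (3.74 log2 units, SE 0.19, limma adjusted p = 2.17e-12) and in heart (0.88, limma adjusted p = 0.00171). It was lower than in lung (-0.90, limma adjusted p = 0.0015) and in adipose (-0.84, limma adjusted p = 0.0068). Bladder (-0.54, limma adjusted p = 0.0617) and skeletal muscle (-0.28, limma adjusted p = 0.339) did not pass the test. With each pair of tissues fitted separately, the call against adipose was lost (adjusted p = 0.09).

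The second Col6a1 probe gave the same directions in all 6 comparisons. It was higher in that source than in liver (3.67, limma adjusted p = 1.4e-10) and heart (0.99, limma adjusted p = 0.00487). It was lower than in adipose (-0.88, limma adjusted p = 0.0263), lung (-0.79, limma adjusted p = 0.0276) and bladder (-0.75, limma adjusted p = 0.0363). These 3 lower calls rested on single arrays and on the fit. With each pair of tissues fitted separately their adjusted p-values were 0.191, 0.147 and 0.0503, median centring lost those against lung (0.086) and bladder (0.08), and the authors' normalized values that against bladder (0.0545). Without pleural and pericardial array 1, whose value for this probe was 10.58, the 3 adjusted p-values were 0.185, 0.187 and 0.235. The call against adipose was also lost without adipose array 1 or 3, that against lung without lung array 2, and that against bladder without any one of its 3 arrays.

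Col6a2 in pleural and pericardial mesothelium passed the test against liver alone (1.40, SE 0.26, limma adjusted p = 0.00029). With the 10 irregular rows kept in the background step this difference was 0.46 and its adjusted p 0.1. The other 5 differences ran from -0.67 against adipose to 0.23 against heart, with adjusted p-values of 0.172 to 0.947. The 95% interval against heart was -0.31 to 0.77 and that against bladder -0.62 to 0.46, so neither direction was resolved.

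In pleural and pericardial mesothelium Col6a5 was called higher than in all 6 tissues, by 0.78 log2 units against bladder (limma adjusted p = 0.0102), 0.79 against adipose (limma adjusted p = 0.0206), 0.92 against lung (limma adjusted p = 0.00282), 0.98 against heart (limma adjusted p = 0.00146), 1.07 against skeletal muscle (limma adjusted p = 0.000412) and 1.07 against liver (limma adjusted p = 0.000392). The probe was detected on 1 of the 3 pleural and pericardial arrays and on none of the others, so these are differences between signals mostly below the detection limit, and no fold is given because no bound was above 1. Their size depended on the background step, running from 0.07 to 1.80 over the alternatives. The call against adipose was lost without pleural and pericardial array 2, the detected one (adjusted p = 0.12), and without adipose array 1 (0.0791), and that against bladder without pleural and pericardial array 2 (0.0781). Both were also lost with the arrays shifted (0.0893 against adipose, 0.0539 against bladder) and with the irregular rows kept (0.147 and 0.0933), and that against adipose with median centring (0.0898) and in the separate fit (0.134).

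Of the 24 comparisons of 4 probes with 6 tissues, 11 were called higher and 5 lower in pleural and pericardial mesothelium. Over all probes and the same 6 comparisons, 7.83% were called higher and 8.23% lower. By tissue, the share of all probes called higher was 2.89% against adipose, 6.6% against bladder, 8.25% against heart, 11.4% against liver, 6.71% against lung and 11.1% against skeletal muscle. The share called lower was 3.34% against adipose, 7.43% against bladder and 7.35% against lung. Col6a5 had 6 of the 11 higher calls, and the 5 lower calls were all of Col6a1.

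**Figure D3:**
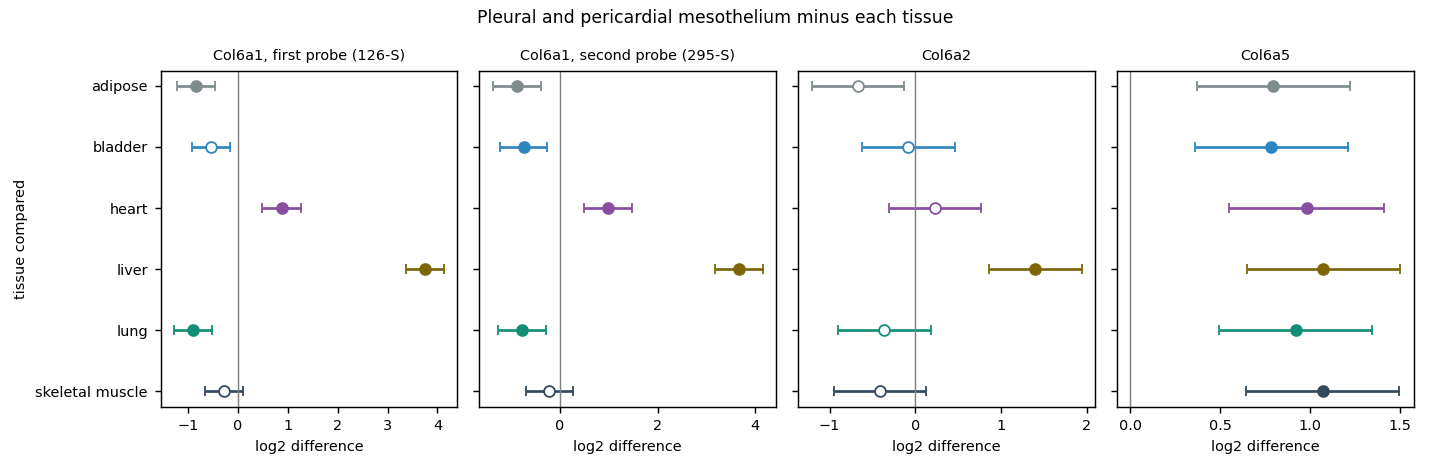
Log2 difference of pleural and pericardial mesothelium from each of the 6 tissues (x axis, with its own range in each panel) for the 4 probes. Points are limma's estimates and bars their 95% intervals, and filled points passed an adjusted p of 0.05. The Col6a1 probes lie on both sides of 0, Col6a2 passes against liver only, and all 6 Col6a5 points lie above 0.

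The 6 tissues were also compared with each other, 15 pairs for each probe. Liver was the lowest tissue for Col6a1 and Col6a2, and heart the next lowest. For the first Col6a1 probe the step from heart down to liver was 2.87 log2 units (SE 0.19, limma adjusted p = 1.32e-10). The same step was 2.68 for the second Col6a1 probe (SE 0.24, limma adjusted p = 1.46e-08) and 1.17 for Col6a2 (SE 0.26, limma adjusted p = 0.00167). With the 10 irregular rows kept, the Col6a2 step was 0.33 and did not pass the test (adjusted p = 0.313), nor did bladder against liver (0.48, adjusted p = 0.0893). Liver arrays lay below all 21 other arrays for these 3 probes, as they did for 3.51% of all probes.

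The rest of the order was separated in part. Lung, adipose and bladder did not pass the test against each other in any probe, with differences of at most 0.59 log2 units. Heart was lower than adipose, bladder, lung and skeletal muscle in both Col6a1 probes, by 1.16 to 1.77 in the first and by 1.21 to 1.87 in the second. For Col6a2, of these 4 tissues adipose alone exceeded heart by a called amount (0.90, limma adjusted p = 0.0169), and that call was lost without adipose array 1 (adjusted p = 0.0596), adipose array 3 (0.0892) or heart array 3 (0.076). Skeletal muscle was called below adipose in both Col6a1 probes (0.55 and 0.67 lower, limma adjusted p = 0.0341 and 0.0456). It was called below lung in the first probe (0.61, limma adjusted p = 0.0166) and not in the second (0.57, limma adjusted p = 0.0889).

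These smaller calls were not firm. For the first Col6a1 probe the call of adipose above skeletal muscle was lost without adipose array 1 or 3 or skeletal muscle array 1 or 2, and that of lung above skeletal muscle without lung array 2 or skeletal muscle array 2. For the second probe the call of adipose above skeletal muscle was lost, with an adjusted p above 0.05, in 15 of 24 cases where an array was left out. With each array centred on its median in place of quantile normalization, the first probe's differences from skeletal muscle shrank to 0.19 in adipose and 0.07 in lung. The calls of adipose above skeletal muscle were also lost with the authors' normalized values (adjusted p = 0.069 and 0.0644 for the first and second probe) and in the separate fit (0.0975 and 0.0524). The signal of Col6a5 did not pass the test in any of the 15 pairs.

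In all, 11 of 15 pairs were called for the first Col6a1 probe, 10 for the second, 6 for Col6a2 and 0 for Col6a5, which makes 27 of 60. Over all probes 19.5% of these comparisons were called. Without liver the count was 12 of 40, against 18.2% of all probes. The 10 pairs called in the second Col6a1 probe were all among the 11 of the first, in the same direction, and the 6 pairs called for Col6a2 were shared with both.

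Agreement between the probes was measured in 2 ways. The first was the correlation of their tissue means, which describes likeness and is given with no test. The points are 8 tissue means from the same 24 arrays and share their normalization. The pair of Col6a1 probes had a Pearson r of 1.00, or 0.99 without liver and peritoneal mesothelium. Among 15537 probes each was the other's nearest match.

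Col6a2 had an r of 0.90 with the first and 0.89 with the second Col6a1 probe. Among the same 15537 probes Col6a2 ranked 95 in likeness to the first Col6a1 probe, and further down for the second. So many other probes matched Col6a1 more closely. In the reverse direction the first Col6a1 probe ranked 9 in likeness to Col6a2, with the second further down. Without liver and peritoneal mesothelium, the lowest and highest tissues, r over the remaining 6 means was 0.82 and 0.77. Col6a5 had an r of 0.55 and 0.54 with the Col6a1 probes and 0.70 with Col6a2. Over the 6 means without liver and peritoneal mesothelium its r was -0.06, -0.02 and -0.26, and without liver alone it was 0.59, 0.57 and 0.69.

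The second measure asked whether the difference of a pair of probes on each array varied over the 8 tissues, which a constant offset between probes does not affect. For the Col6a1 probes the mean difference ran from 0.15 log2 units in bladder to 0.50 in peritoneal mesothelium, a range of 0.35, and did not vary beyond the spread between arrays (permutation test of F over 24 arrays, 100000 resamples, adjusted p = 0.737 over 6 pairs). For the first Col6a1 probe and Col6a2 the mean difference ran from 0.65 in liver to 3.53 in lung (permutation adjusted p = 3e-05). For the second Col6a1 probe and Col6a2 it ran from 0.36 in liver to 3.30 in bladder (permutation adjusted p = 0.000255). In liver Col6a2 was near the limit of detection, which bounds how far it could fall there. Without the 3 liver arrays, a choice made after seeing the data, the adjusted p-values were 0.00194 and 0.036. The 3 pairs with Col6a5 all varied over tissues (permutation adjusted p = 3e-05, 4e-05 and 0.000576), but Col6a5 was not detected outside mesothelium, so over the other tissues these differences follow the other probe.

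**Figure D4:**
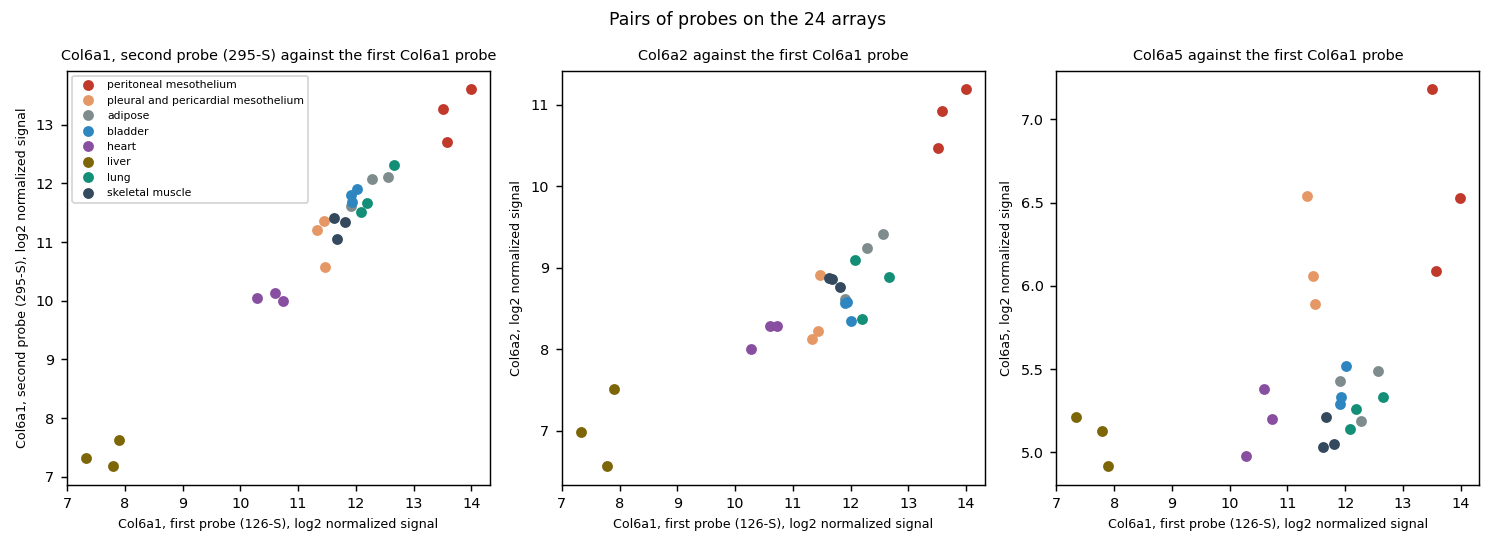
Log2 normalized signal of the second Col6a1 probe, Col6a2 and Col6a5 (y axes) against the first Col6a1 probe (x axes) on the 24 arrays, coloured by tissue. The Col6a1 probes follow a line over all tissues (r = 1.00 over tissue means), Col6a2 follows with more scatter (0.90), and Col6a5 rises above its level in the other tissues only in the mesothelium sources.

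Within tissues the probes also varied from array to array. Over the 24 deviations of arrays from their tissue mean, r was 0.54 between the Col6a1 probes, 0.49 between the first Col6a1 probe and Col6a2, and 0.10 between the second Col6a1 probe and Col6a2. The Col6a1 probes differed most on array 1 of both mesothelium sources, by 0.88 and 0.90 log2 units. On arrays 2 and 3 they differed by 0.23 and 0.39 in peritoneal and by 0.13 and 0.08 in pleural and pericardial mesothelium. Since array 1 was low in the second probe in both sources, the difference between the sources was about the same on that array (2.12) as on the others.

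**Figure D5:**
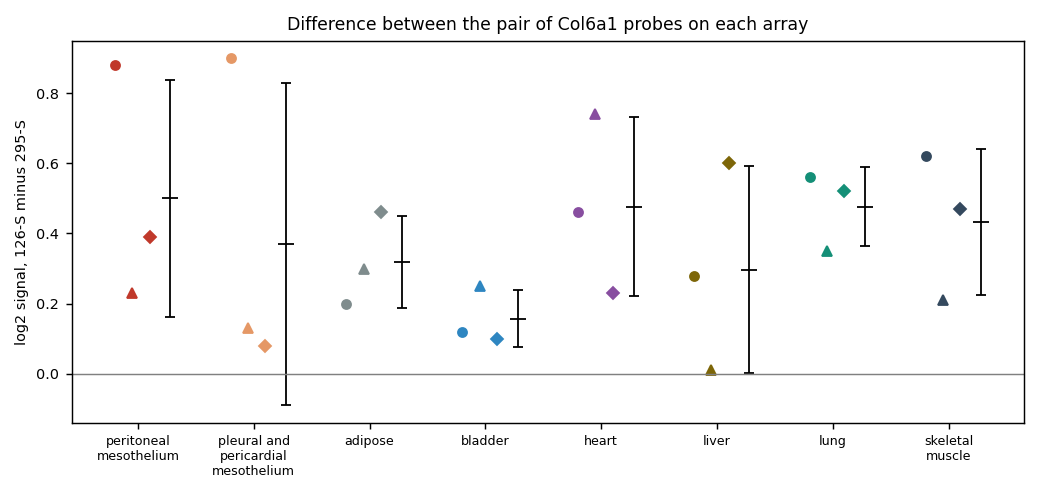
Difference of the log2 signals of the Col6a1 probes, first minus second (y axis), on each array by tissue (x axis), with circles, triangles and diamonds for replicates 1, 2 and 3 and bars for the mean and SD. The difference is between 0.01 and 0.90 on all 24 arrays and highest on replicate 1 of both mesothelium sources.

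The probes most like each chain were sought among 299 named probes that some tissue detected on its 3 arrays. These probes carry a name because they are listed as enriched in mesothelium. Nearest to both Col6a1 probes were Ltbp3, a latent TGF-beta binding protein of the matrix (r = 0.97 over 8 tissue means), and Fkbp9, a prolyl isomerase of the endoplasmic reticulum (0.95). Adamts2, which trims procollagen, and Sfxn3, a mitochondrial carrier, followed at 0.93. Mfap5, a microfibril protein, was the fifth for the first probe, and Loxl1, which crosslinks elastin, for the second. Among all 15534 probes compared, Ltbp3 ranked 5 for the first and 6 for the second Col6a1 probe, and Fkbp9 15 and 21. The others ranked 38 to 47, so many unnamed probes were closer to Col6a1.

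Nearest to Col6a2 were Fkbp14 (r = 0.96), a further isomerase of the endoplasmic reticulum, and Tnxb (0.93), the matrix protein tenascin-X. They ranked 1 and 3 among all 15534 probes compared. Casp12, Mtmr11 and a second probe of Sfxn3 followed at 0.92, 0.91 and 0.90. Nearest to Col6a5 were Penk, a precursor of opioid peptides, and Efemp1, a fibulin of the matrix, both at 0.99. Since Col6a5 was not detected in the 6 other tissues and named probes were listed for being high in mesothelium, this r reads mesothelium against background.

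Genes that act around collagen VI were read from lists. In the matrix that surrounds it, 8 of 12 listed genes carried a name, and 7 of the 8 were called higher in peritoneal than in pleural and pericardial mesothelium, with a median difference of 1.34 log2 units. The count ran from 5 to 8 over the alternatives. Calls were lost for Fbn1 with the arrays shifted (adjusted p = 0.0649) and in the separate fit (0.105), for Fbln2 in the separate fit (0.0581), and for Efemp1 (0.052) and Nid2 (0.0639) with the authors' normalized values. Tnxb differed by 2.10 (SE 0.21, limma adjusted p = 1.06e-06). Dcn, the collagen-binding proteoglycan decorin, differed by 1.15 (limma adjusted p = 0.00154), Mfap5 by 1.43 (limma adjusted p = 0.00181) and Efemp1 by 1.42 (limma adjusted p = 0.00609). Nid2, a basement membrane linker, differed by 1.45 (limma adjusted p = 0.0265), a call lost without either of peritoneal arrays 1 and 2 or pleural and pericardial arrays 1 and 3. Fbn1, whose protein fibrillin forms microfibrils, was detected on 1 of 24 arrays. Emilin2 read 0.76 higher and did not pass the test (limma adjusted p = 0.163), but passed with the irregular rows kept (0.00176).

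Among genes of collagen folding and secretion, 6 of 9 carried a name and all 6 were called higher in peritoneal mesothelium, with a median difference of 1.23 log2 units. Serpinh1, the collagen chaperone of the endoplasmic reticulum, was higher by 1.13 (SE 0.17, limma adjusted p = 0.000202). Fkbp9 and Fkbp14 were both higher by 1.20 (limma adjusted p = 1.69e-05 and 6.66e-05), and Fkbp10, a chaperone of procollagen, by 1.40 (limma adjusted p = 0.00785). Leprel2, which hydroxylates prolines of collagen, was higher by 1.27 (limma adjusted p = 5.02e-05). Creb3l1, a transcription factor of secretory cells, was higher by 1.27 (limma adjusted p = 0.011), a call lost without peritoneal array 1 or pleural and pericardial array 2 or 3 and in the separate fit (0.17).

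Of 7 listed collagen receptors Ddr1 alone carried a name, and it was higher in peritoneal mesothelium by 1.38 (limma adjusted p = 0.000761). None of the 7 listed fibrillar and basement membrane collagens carried a name. The study gives all named genes of these lists as enriched in peritoneal mesothelium only, from the same arrays. Their direction was therefore favoured by that choice and is not independent evidence. The share of all probes called higher in peritoneal mesothelium was 3.41%. Beside the 2.14 to 2.44 log2 units of the Col6a1 and Col6a2 probes, the differences of Islr (2.19) and Tnxb (2.10) were of similar size.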

How the data were processed

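The 24 arrays were grouped by the tissue and replicate that the labels name. The authors deposited 2 tables of 46120 probes: signal intensity from BeadStudio 3.1, with background subtracted and no normalization between arrays, beside a detection score, a fraction that is 1 minus a detection p; and signal intensity quantile normalized with Lumi by the authors, on a linear scale. Scans were summarised in BeadStudio by the authors. The study compared tissues with limma's B-statistic.

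Here the deposited signals, 36% of them at or below 0, were corrected with limma's normexp (offset 16, 1616 negative controls inferred from the detection scores, without 10 rows whose scores are off the steps of the rest), quantile normalized and then put on a log2 scale. This order, which is that of limma's neqc, was taken after values with log2 first had been seen, and log2 first is an added alternative. limma 3.58.1 in R 4.3.3 was fitted over all 24 arrays with 1 mean per tissue, and p-values were Benjamini-Hochberg adjusted over all 46120 probes of a comparison and called under 0.05. Pairs of probes were compared by a permutation test with 100000 resamples, two-sided by construction and adjusted over 6 pairs. The scripts were tested on simulated data. Figures were drawn with matplotlib 3.10.9.

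Probe names came from the supplementary list of enriched probes, which names 350 probes (311 genes), so other probes are unnamed here, apart from immunoglobulin probes, which were taken by the prefix of their identifiers. The members and lists were chosen with earlier results of these data known. Named genes were the members, the 5 named probes of highest r with each, and the fixed lists. Nothing says that the 3 arrays of a tissue come from separate mice, so the p-values reflect the spread of these arrays alone, and it may be technical. No 2 arrays held identical values, and arrays of a tissue correlated at 0.942 to 0.993. Deviations from a tissue mean cancel over its 3 arrays, so r between replicate numbers is no contrast separate from r within them. Arrays of the same replicate number deviated together in the mesothelium sources (r = 0.59 to 0.63, and -0.41 to -0.16 between numbers). Some other pairs of tissues did so less strongly, such as peritoneal mesothelium and liver (0.20 to 0.35) and lung and skeletal muscle (0.26 to 0.43). Others did not, such as peritoneal mesothelium and heart (-0.15 to -0.05). The replicate number was therefore also used as a block. The number of arrays limits the precision.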

Additional observations from a re-analysis of the deposited data

How the results depend on the processing

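Beside leaving out each of the 24 arrays, these alternatives were run: arrays shifted so that their minimum was 1, a normexp offset of 50, the irregular rows kept, the authors' normalized values, median centring, a filter on dim probes, the replicate number as a block, a separate fit of each pair of tissues, and log2 before quantile normalization, the last chosen after seeing the data. The filter leaves out Col6a5. The count of probes called higher in peritoneal than in pleural and pericardial mesothelium was 3 in all of them and 3 to 4 with an array left out. With the replicate block the counts were 3 for the sources, 16 for pleural and pericardial mesothelium against tissues and 27 among tissues, as without it, and among the listed genes the block changed the call of Cd34 alone. Over all alternatives and arrays left out these last 2 counts ran from 11 to 17 and from 24 to 28. The test of probe pairs was not run with the filter on dim probes, the replicate block or the separate fit. In the other alternatives and with each array left out, 5 of 6 probe pairs differed in tissue pattern. Of these, 3 were pairs with Col6a5, which was not detected outside mesothelium. The lowest r among the Col6a1 and Col6a2 pairs was 0.89, and 0.75 with the irregular rows kept; the cause was not tested. Of 88 comparisons of members, 47 were called or lay between the mesothelium sources. Of these 47, 33 kept their direction and side of the threshold in all alternatives and with every array left out, and 14 changed side in at least 1. None of the 47 reversed. Of the other 41, none of them called, 7 passed the threshold in at least 1 setting, and 17 changed sign in at least 1 without being called there. Col6a5, detected on 3 of 24 arrays, is limited by its signal over background.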
